A study of Rattus norvegicus with 36 samples.

Results

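The genes described here are 4 genes of cell division, Mki67, Cdk1, Top2a and Pcna. They were chosen by name, through the Ensembl IDs ENSRNOG00000028137, ENSRNOG00000000632, ENSRNOG00000053047 and ENSRNOG00000021264 in that order, and make up 4 of the 32883 genes in the deposited count table. The names came with the choice of these IDs, and neither the count table nor the RefSeq gene table used here pairs the IDs with names. All 4 genes passed the filter on low counts and are among the 15644 genes tested, and all 4 are also in the authors' log2 table. The lowest expected count in any library was 480 for Mki67, 34 for Cdk1, 141 for Top2a and 1303 for Pcna.

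RNA was sequenced from precision-cut lung slices of the rat, slices of living lung tissue cut thin enough to be kept in culture, to characterize a model for testing drugs against fibrosis. There were 36 libraries in 6 groups of 6. Slices with TGFb at the labelled time 72 also received Pirf, Nint or Sora, read here from knowledge of the study as pirfenidone, an anti-fibrotic drug, and the kinase inhibitors nintedanib and sorafenib. These 3 drug groups are set against slices with TGFb alone at 72, and the remaining groups are untreated slices at 72 and untreated slices at 0. TGFb is a growth factor that drives fibrosis. The labels give no unit for time, no dose, and no strain, sex, age, genotype or vehicle. They do not say whether the 6 libraries of a group came from separate animals or which slices shared an animal, and the p-values therefore cover the spread among these libraries alone, which may be technical. The slices hold many cell types, and in such bulk RNA fewer dividing cells and less of these RNAs per cell cannot be told apart. Markers of lung cell types could not be examined, because the IDs could not be paired with names. The libraries at 72 held 18971560 to 32933012 counts each, and those at 0 held 15886958 to 23255558. Untreated replicate 3 at 0 stood apart from its group for 3 of the 4 genes, and results against time 0 are also given without it.

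All 4 genes belong to the machinery of the dividing cell. Pcna encodes the sliding clamp that holds DNA polymerase on its template during replication, and it also serves in DNA repair. Top2a encodes a topoisomerase that untangles DNA, Cdk1 encodes the kinase that drives entry into mitosis, and Mki67 encodes Ki-67, a protein that coats mitotic chromosomes and is the standard marker of cycling cells. In mammals many genes of late cell cycle phases carry a CCAAT box and a cell cycle homology region near their start, whereas E2F sites are typical of genes switched on for DNA replication.

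The bases before the start of each gene are shown because the 4 genes are set against each other throughout, and these stretches differ in such motifs. The sequences are the 250 bases before each start in RefSeq's GRCr8 build, which is not the Rnor_6.0 build named in the submitters' processing notes. Mki67 lies at chr1:199952594-199952843 on the minus strand and Cdk1 at chr20:19265043-19265292 on the plus strand. Top2a lies at chr10:84473094-84473343 and Pcna at chr3:139955821-139956070, both on the minus strand. Each sequence is written 5′ to 3′ on the strand of its gene, and capitals mark the motifs searched on both strands. The first motif was CCAAT. The cell cycle homology region was searched as TTTGAA and, in its other common form, as TTCGAA. The E2F-type motif was searched as TTCCCGC, with the variant TTCGCGC, with the variant TTGCCGC and with the variant TTGGCGC.
Mki67: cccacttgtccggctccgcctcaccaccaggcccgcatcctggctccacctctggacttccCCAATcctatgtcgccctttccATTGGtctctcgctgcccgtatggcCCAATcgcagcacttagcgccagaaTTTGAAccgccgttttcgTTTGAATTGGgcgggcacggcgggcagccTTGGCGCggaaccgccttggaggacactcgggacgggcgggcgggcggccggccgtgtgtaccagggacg
Cdk1: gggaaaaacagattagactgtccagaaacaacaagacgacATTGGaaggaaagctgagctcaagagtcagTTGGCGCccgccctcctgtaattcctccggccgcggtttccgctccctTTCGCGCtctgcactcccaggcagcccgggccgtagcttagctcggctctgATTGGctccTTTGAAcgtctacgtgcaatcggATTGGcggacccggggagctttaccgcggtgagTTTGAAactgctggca
Top2a: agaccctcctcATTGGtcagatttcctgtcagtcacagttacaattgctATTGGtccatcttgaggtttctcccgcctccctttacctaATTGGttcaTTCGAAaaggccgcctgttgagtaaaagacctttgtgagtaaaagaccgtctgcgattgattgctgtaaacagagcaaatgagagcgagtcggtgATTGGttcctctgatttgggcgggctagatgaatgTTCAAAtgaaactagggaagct
Pcna: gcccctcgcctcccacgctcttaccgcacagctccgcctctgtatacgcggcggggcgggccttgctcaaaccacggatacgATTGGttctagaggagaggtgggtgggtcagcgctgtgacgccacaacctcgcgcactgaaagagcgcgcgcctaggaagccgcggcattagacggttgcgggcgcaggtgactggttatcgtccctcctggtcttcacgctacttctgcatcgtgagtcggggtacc

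The Mki67 stretch held 4 CCAAT motifs, 2 cell cycle homology motifs and 1 E2F-type motif. Its second cell cycle homology motif shares 1 base with the neighbouring CCAAT on the other strand. The Cdk1 stretch held 3, 2 and 2 of these motifs, in the same order. The Top2a stretch held 4 CCAAT and 2 cell cycle homology motifs, of which the TTCGAA reads the same on both strands and was counted once, and 0 E2F-type motifs. The Pcna stretch held 1 CCAAT motif and 0 of the others. Among 27456 promoters of the same length in the RefSeq table, 34.3% held a CCAAT and 9.77% held 2 or more. A cell cycle homology motif was found in 17.3%, both kinds together in 6.22%, and an E2F-type motif in 7.97%. A match describes the letters and not a bound site. Only these exact letters in the bases shown were searched, so a count of 0 does not mean that a gene lacks such a site.

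In untreated slices, Mki67, Cdk1 and Top2a were 8.22-fold to 15-fold higher at 72 than at 0, whereas Pcna was 1.28-fold higher. Levels are given as CPM, counts scaled to a common library total and further scaled with TMM, the trimmed mean of M values, as lowest, median and highest of 6 libraries. CPM are not corrected for gene length, so levels of different genes are not compared. Mki67 stood at 361.7, 384.6 and 408.1 CPM in untreated slices at 72, against 31.2, 37.0 and 102.5 CPM in untreated slices at 0. Cdk1 stood at 50.5, 61.3 and 66.2 CPM in untreated slices at 72, against 2.12, 2.81 and 10.96 CPM in untreated slices at 0. Neither gene's groups overlapped, and the same held for Top2a. Top2a stood at 154.2, 171.1 and 189.5 CPM in untreated slices at 72, against 9.16, 10.8 and 43.4 CPM in untreated slices at 0. Pcna stood at 112.2, 135.2 and 152.2 CPM in untreated slices at 72, against 80.2, 102.8 and 131.2 CPM in untreated slices at 0. The Pcna groups overlapped.

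Tested with edgeR's quasi-likelihood test and Benjamini-Hochberg adjustment over 15644 genes, all 4 genes rose in untreated slices at 72, where 38% of all genes were called higher at an adjusted p under 0.05. The groups did not overlap for 3 of the 4 genes, against 26.3% of all genes in that direction. The mitotic kinase gene Cdk1 changed by 3.91 on the log2 scale (SE 0.24, adjusted p = 6.4e-16), a 15-fold difference exceeded by 0.479% of the genes tested. Top2a changed by 3.43 on the log2 scale (SE 0.25, adjusted p = 5.64e-14), or 10.8-fold. Mki67 changed by 3.04 (SE 0.19, adjusted p = 1.16e-15), or 8.22-fold. The replication clamp Pcna changed by 0.36 (SE 0.08, adjusted p = 0.000208), or 1.28-fold, and 35.4% of genes had a larger log2 fold change. The median log2 change was 3.23 over the 4 genes and 0.02 over all genes tested.

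A single untreated library at 0, replicate 3, stood apart from its group for the genes of mitosis. It held 102.5 CPM of Mki67, 10.96 CPM of Cdk1 and 43.4 CPM of Top2a, whereas the other 5 libraries held at most 39.6, 3.17 and 11.3 CPM of these genes. Its Pcna level of 80.2 CPM was the lowest of the 6. This library was the highest of its group for 53.6% of the 2276 genes that were at least 2-fold higher in untreated slices at 72 and called, and for 28.5% of all genes. Among the other 5 libraries the largest shares were those of replicate 1, at 18.9% and 23.8%, so the shares over all genes lay close. The mean correlation of replicate 3 with the other 5 libraries across genes was 0.954, against 0.960 to 0.972 for the others. Without it the log2 fold changes at 72 were 3.43 for Mki67, 4.51 for Cdk1, 4.04 for Top2a and 0.30 for Pcna, so the changes of the first 3 genes were larger.

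**Figure D1:**
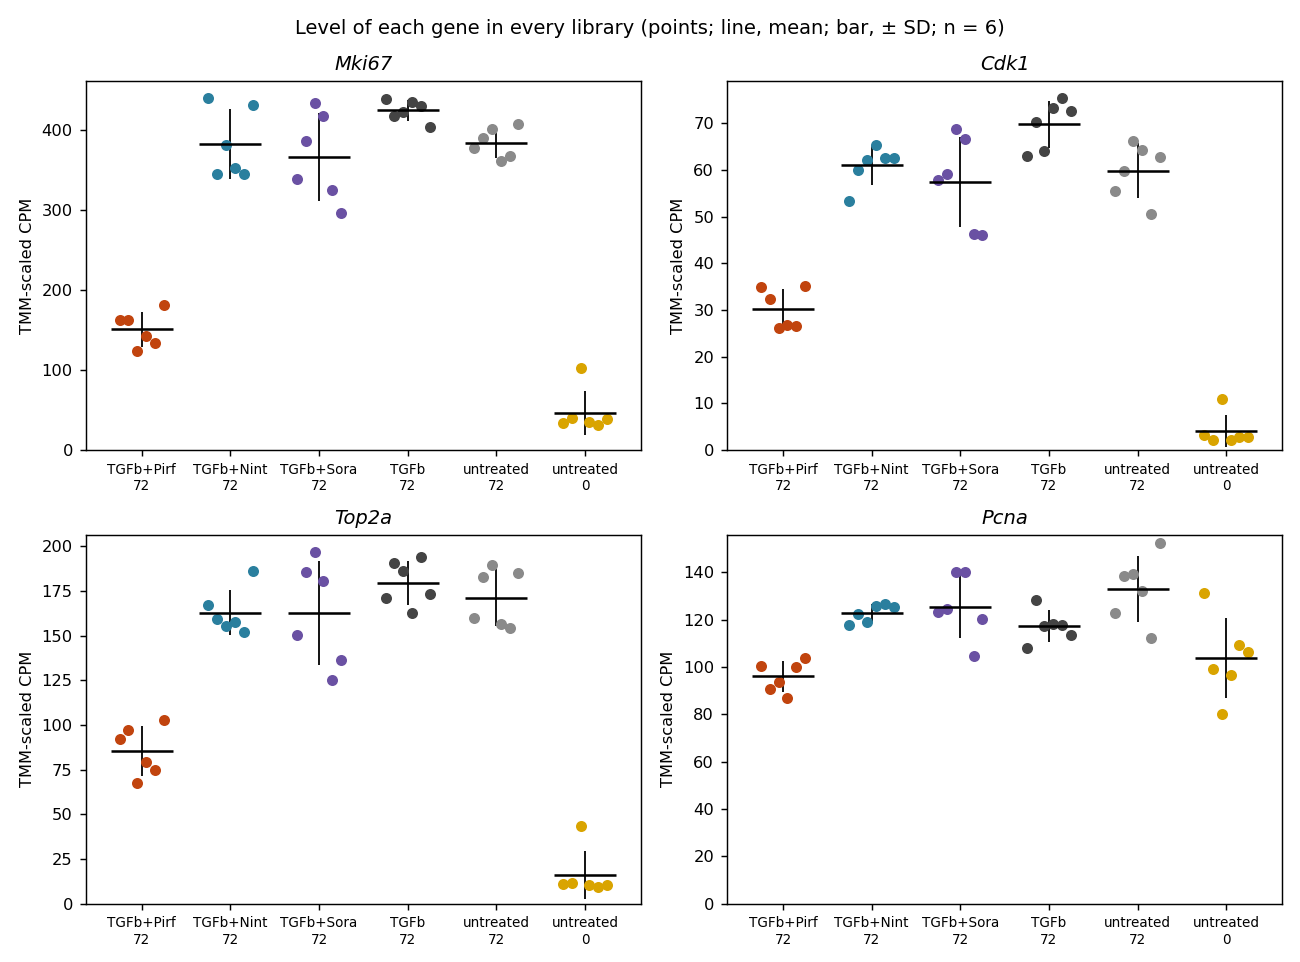
Levels of Mki67, Cdk1, Top2a and Pcna in each library, in TMM-scaled CPM on a linear axis, for the 6 groups of 6 libraries. Points are libraries, and the line and bar give the mean and SD. Pirf libraries lie below all other libraries at 72 for every one of the 4 genes, and the single raised point among untreated slices at 0 for Mki67, Cdk1 and Top2a is replicate 3, which is the lowest of its group for Pcna.

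TGFb alone moved none of the 4 genes past the threshold at 72. Mki67 stood at 404.5, 426.7 and 438.7 CPM with TGFb, against 361.7, 384.6 and 408.1 CPM in untreated slices at 72. Cdk1 stood at 63.0, 71.4 and 75.3 CPM with TGFb, against 50.5, 61.3 and 66.2 CPM in untreated slices at 72. Both pairs of groups overlapped, though only at their edges. Top2a stood at 162.8, 179.5 and 193.7 CPM with TGFb, against 154.2, 171.1 and 189.5 CPM in untreated slices at 72. Pcna stood at 108.0, 117.5 and 128.3 CPM with TGFb, against 112.2, 135.2 and 152.2 CPM in untreated slices at 72. These groups overlapped as well, and of all genes 6.84% had higher and 6.76% lower, separate groups.

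In edgeR's quasi-likelihood test 0 of the 4 genes were called for TGFb at 72, where 26.4% of all genes were called in either direction. An unadjusted p under 0.05 was reached by 1 of the 4 genes, Pcna, and both DESeq2 and limma with voom called 0. The log2 change of Pcna was -0.18 (95% interval -0.34 to -0.02, adjusted p = 0.0985 in edgeR's test). The log2 change of Mki67 was 0.14 (95% interval -0.21 to 0.50, adjusted p = 0.607), that of Cdk1 was 0.22 (-0.19 to 0.63, adjusted p = 0.466) and that of Top2a was 0.07 (-0.39 to 0.53, adjusted p = 0.868). Without scaling factors the Top2a value changed sign, to -0.0020. These calls changed with the libraries in the fit. Fitted on the 12 libraries compared alone, the same log2 changes of Mki67 and Cdk1 were called, with adjusted p = 0.037 and 0.0395. Pcna was called lower without scaling factors at -0.25, with the 30 libraries at 72 fitted alone at -0.18, with untreated replicate 3 at 0 left out of the fit at -0.20, and without untreated replicate 5 at 72 at -0.22.

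In the fit of all 36 libraries, pirfenidone was the only one of the 3 drugs with which any of the 4 genes was called against TGFb alone. It was also the drug with the most calls, as 51.5% of all genes were called in either direction with Pirf, 15.4% with Sora and 3.09% with Nint. With Pirf and TGFb, Mki67 stood at 123.5, 152.1 and 181.6 CPM, against 404.5, 426.7 and 438.7 CPM with TGFb alone. Cdk1 stood at 26.1, 29.5 and 35.1 CPM with Pirf, against 63.0, 71.4 and 75.3 CPM with TGFb alone. The lowest TGFb library thus lay well above the highest Pirf library for both genes. Top2a stood at 67.3, 85.7 and 102.9 CPM with Pirf, against 162.8, 179.5 and 193.7 CPM with TGFb alone. Pcna stood at 87.1, 96.9 and 103.9 CPM with Pirf, against 108.0, 117.5 and 128.3 CPM with TGFb alone. These groups did not overlap either, although the gap was narrow for Pcna.

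All 4 genes fell with Pirf, where 26.4% of all genes were called lower, and none of the 4 pairs of groups overlapped, against 16.4% of all genes with lower, separate groups. The marker of cycling cells, Mki67, was lower by a log2 value of -1.49 (SE 0.18, adjusted p = 4.62e-08 in edgeR's quasi-likelihood test), a 2.81-fold lower level. The mitotic kinase gene Cdk1 changed by -1.20 (SE 0.21, adjusted p = 1.27e-05), or 2.30-fold lower. The topoisomerase gene Top2a changed by -1.07 (SE 0.23, adjusted p = 0.000235), or 2.10-fold lower. Pcna changed by -0.29 (SE 0.08, adjusted p = 0.00348), or 1.22-fold lower. A larger fall than that of Mki67 was seen in 2.81% of genes, whereas 25.6% of genes fell further than Pcna. The median log2 change was -1.14 over the 4 genes and 0.00 over all genes tested. The call of Pcna rests on the scaling, since without scaling factors its log2 change was -0.14 (adjusted p = 0.207). Omitting the factors moved the median log2 change of all genes by 0.153, and of the genes then called 2594 were lower and 5973 higher, against 4135 lower and 3926 higher with them. The scaling factors lay between 1.06 and 1.08 with Pirf, against 0.894 to 1.02 with TGFb alone, and their part in the result was not tested beyond this.

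Against untreated slices at 72, the Pirf slices were also lower in all 4 genes, where 26% of all genes were called lower. The log2 changes were -1.35 for Mki67, -0.98 for Cdk1, -1.0 for Top2a and -0.47 for Pcna, with adjusted p between 2.12e-07 and 0.000448. Against untreated slices at 0, 3 of the 4 genes were still higher with Pirf, where 39.8% of all genes were called higher. The log2 changes were 1.69 for Mki67, 2.93 for Cdk1 and 2.43 for Top2a, and without untreated replicate 3 at 0 they were 2.08, 3.52 and 3.03 for these genes. Pcna did not pass the test there, at -0.11 (95% interval -0.28 to 0.05, adjusted p = 0.205), and its Pirf libraries held 87.1 to 103.9 CPM, against 80.2 to 131.2 CPM in untreated slices at 0. Without that library Pcna was called lower, at -0.18 (adjusted p = 0.0351), and without scaling factors its sign turned, to 0.05 (adjusted p = 0.638). The comparisons with TGFb alone and with untreated slices share the Pirf libraries.

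**Figure D2:**
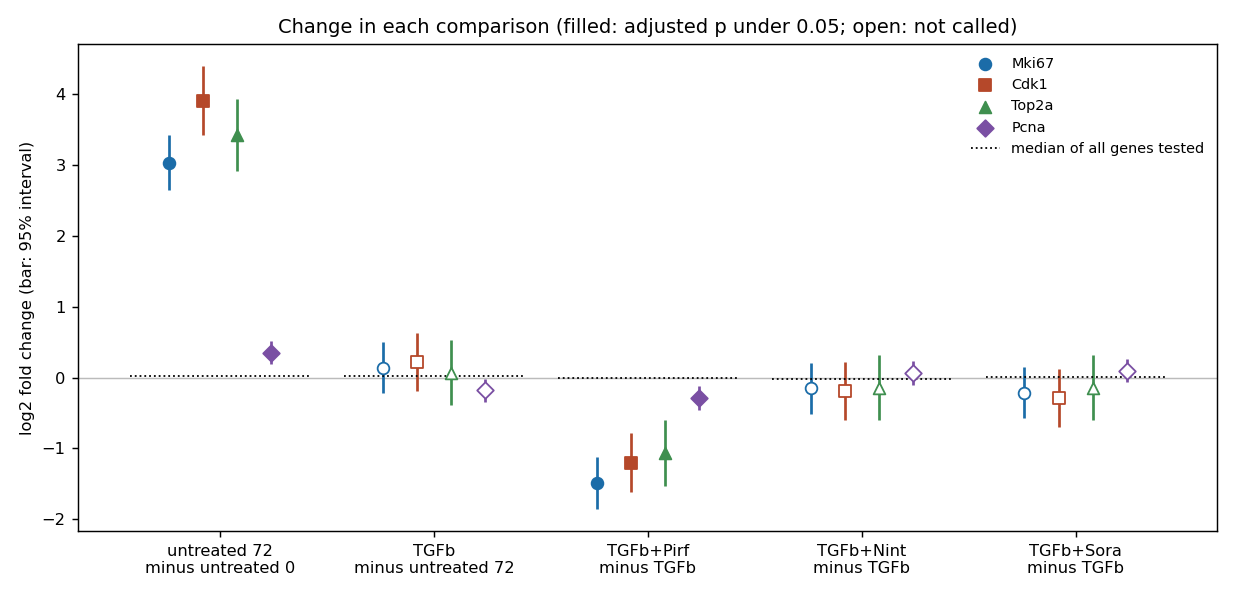
Log2 fold changes of the 4 genes with 95% intervals for 5 comparisons, from edgeR's fit of all 36 libraries. Symbols are filled where the adjusted p was under 0.05, the grey line marks 0 and the dotted lines mark the median of all genes tested. The intervals of Pirf against TGFb lie below 0 for all 4 genes, at -1.49, -1.20, -1.07 and -0.29, whereas those of Nint and Sora against TGFb include 0.

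Nintedanib and sorafenib moved none of the 4 genes past the threshold against TGFb alone. Of all genes, 3.09% were called with Nint and 15.4% with Sora, so 0 of 4 does not set these genes apart. With Nint and TGFb, Mki67 stood at 344.9, 367.4 and 440.6 CPM and Cdk1 at 53.3, 62.3 and 65.4 CPM, against medians of 426.7 and 71.4 CPM with TGFb alone. Top2a stood at 152.2, 158.5 and 186.2 CPM and Pcna at 117.8, 123.7 and 126.8 CPM with Nint, against medians of 179.5 and 117.5 CPM with TGFb alone. All 4 pairs of groups overlapped, and of all genes only 1.2% had higher and 1.91% lower, separate groups. In edgeR's quasi-likelihood test 0 of the 4 genes were called for Nint, where 3.09% of all genes were called in either direction, 0 had an unadjusted p under 0.05, and DESeq2 and limma called 0. The log2 changes with Nint were -0.15 for Mki67 (95% interval -0.51 to 0.21) and -0.19 for Cdk1 (-0.60 to 0.22). They were -0.14 for Top2a (-0.60 to 0.32) and 0.07 for Pcna (-0.10 to 0.23), with adjusted p between 0.828 and 0.911 for the 4 genes. A fall of the size seen with Pirf lies outside these intervals for every one of the 4 genes.

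With Sora and TGFb the libraries were more spread. Mki67 stood at 296.7, 362.4 and 434.2 CPM and Cdk1 at 46.0, 58.4 and 68.7 CPM with Sora. Top2a stood at 125.1, 165.6 and 196.7 CPM and Pcna at 104.6, 123.8 and 140.2 CPM. Each range overlapped that with TGFb alone, given above, and of all genes only 1.71% had higher and 2.94% lower, separate groups. In edgeR's test 0 of the 4 genes were called for Sora, where 15.4% of all genes were called in either direction, 0 had an unadjusted p under 0.05, and DESeq2 and limma called 0. The log2 changes with Sora were -0.21 for Mki67 (95% interval -0.57 to 0.14) and -0.28 for Cdk1 (-0.69 to 0.13). They were -0.14 for Top2a (-0.60 to 0.31) and 0.10 for Pcna (-0.06 to 0.26), with adjusted p between 0.36 and 0.704. Cdk1 was called lower when the 30 libraries at 72 were fitted alone (adjusted p = 0.037) and when untreated replicate 3 at 0 was left out of the fit (adjusted p = 0.0453). The 3 drug comparisons share the TGFb-alone libraries.

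Set against untreated slices at 72, 0 of the 4 genes were called with Nint, where 26.4% of all genes were called, and 0 with Sora, where 25% were. In either comparison 0 of the 4 had an unadjusted p under 0.05 in edgeR's test, and DESeq2 and limma called 0. The log2 changes lay between -0.11 and 0.03 with Nint and between -0.08 and -0.06 with Sora. Against untreated slices at 0 all 4 genes were higher with Nint, where 39.1% of all genes were called higher, with Sora, where 39.5% were, and with TGFb alone, where 39.9% were. The log2 changes of Mki67, Cdk1 and Top2a lay between 2.97 and 4.13 in these comparisons, and between 3.35 and 4.71 without untreated replicate 3 at 0. Pcna was the least changed of the 4 there, at 0.24 with Nint, 0.27 with Sora and 0.18 with TGFb alone (adjusted p = 0.00733, 0.00281 and 0.0485 in edgeR's test). Without that library Pcna stood at 0.18 with Nint and 0.20 with Sora (adjusted p = 0.031 and 0.0161). The call with TGFb alone was lost under 15 of 20 alternatives, among them the fit without that library, which gave 0.10 (adjusted p = 0.223).

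The drugs were also compared with each other on slices with TGFb, each at 1 unstated dose, so that doses cannot be matched. All 4 genes were higher with Nint than with Pirf, where 26.5% of all genes were called higher. The log2 differences were 1.34 for Mki67, 1.01 for Cdk1, 0.93 for Top2a and 0.36 for Pcna, with adjusted p between 2.29e-07 and 0.000908. Without scaling factors Pcna was not called, at 0.21 (adjusted p = 0.053), and the genes called in all were 2660 higher and 6258 lower with Nint, against 4140 and 4404 with them. All 4 genes were likewise higher with Sora than with Pirf, where 21.8% of all genes were called higher. These log2 differences were 1.28 for Mki67, 0.92 for Cdk1, 0.92 for Top2a and 0.39 for Pcna, with adjusted p between 9.09e-07 and 0.00147. The groups did not overlap for any of the 4 genes in either comparison. Of all genes, 20.2% had higher, separate groups with Nint and 12.7% with Sora. Between Sora and Nint 0 of the 4 genes were called, where 11% of all genes were, 0 had an unadjusted p under 0.05 in edgeR's test, and DESeq2 and limma called 0. The log2 differences there lay between -0.09 and 0.03, those of Mki67, Cdk1 and Top2a turned positive without scaling factors, and the widest interval, that of Top2a, ran from -0.46 to 0.45.

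Ordered by mean level, Mki67 stood highest with TGFb at 425 ± 12.7 CPM (SD, n = 6), followed by untreated slices at 72 at 385 ± 18.7 CPM. Nint at 383 ± 43.4 CPM and Sora at 367 ± 54.6 CPM came next, and Pirf at 151 ± 21.7 CPM and untreated slices at 0 at 46.8 ± 27.4 CPM came last. Top2a kept the same order, with 180 ± 12.4 CPM with TGFb at the top, 85.6 ± 14.0 CPM with Pirf and 16 ± 13.5 CPM in untreated slices at 0. For Cdk1, Nint at 61.0 ± 4.14 CPM and untreated slices at 72 at 59.8 ± 5.92 CPM changed places. In these 3 genes the neighbours Sora and Pirf, and Pirf and untreated at 0, differed by edgeR's test, and no other neighbours did. Pcna had another order, with untreated slices at 72 highest at 133 ± 14.0 CPM and Pirf lowest at 96.0 ± 6.53 CPM, just under untreated slices at 0 at 104 ± 16.8 CPM. Among Pcna's neighbours only TGFb at 117 ± 6.64 CPM and untreated slices at 0 differed (adjusted p = 0.0485).

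The ratio of each gene to Pcna within a library asks whether the 4 genes changed by different amounts. The scaling factors cancel in this ratio, except in the small count added before the log. Only the difference of a log2 ratio between groups is read here, and it was tested with a two-sided exact permutation test over 6 against 6 libraries, adjusted over 30 such tests. The smallest p these groups allow is 0.00216. With Pirf, the log2 ratio of Mki67 to Pcna was 0.64 ± 0.19, against 1.86 ± 0.10 with TGFb alone (SD, n = 6 each), a difference of -1.22 (exact permutation, adjusted p = 0.00433). The difference was -0.92 for Cdk1 over Pcna and -0.79 for Top2a over Pcna, with the same adjusted p. No library of one group reached the other in these 3 ratios. Mki67 also fell further than Top2a, by -0.42 in their log2 ratio, and further than Cdk1, by -0.29, both with exact permutation adjusted p = 0.00433. The ratio of Cdk1 to Top2a differed by -0.13 (exact permutation, adjusted p = 0.121).

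The same ratios differed in the comparisons in which no single gene was called. With TGFb alone the log2 ratio of Cdk1 to Pcna was -0.75 ± 0.11, against -1.15 ± 0.09 in untreated slices at 72 (SD, n = 6 each), a difference of 0.40 (exact permutation, adjusted p = 0.00433). Top2a over Pcna differed by 0.25 (exact permutation, adjusted p = 0.00433) and Mki67 over Pcna by 0.32 (exact permutation, adjusted p = 0.00812). With Nint, the ratio to Pcna was lower than with TGFb alone by -0.26 for Cdk1 (exact permutation, adjusted p = 0.00433), by -0.21 for Top2a (0.0171) and by -0.23 for Mki67 (0.0487), the last of which was lost when a library was left out in 9 of 12 cases. With Sora, the differences from TGFb alone were -0.39 for Cdk1 and -0.32 for Mki67 (exact permutation, adjusted p = 0.00433 each) and -0.25 for Top2a (0.0171). The TGFb-alone libraries serve in all of these, and their higher ratios enter each drug comparison.

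**Figure D3:**
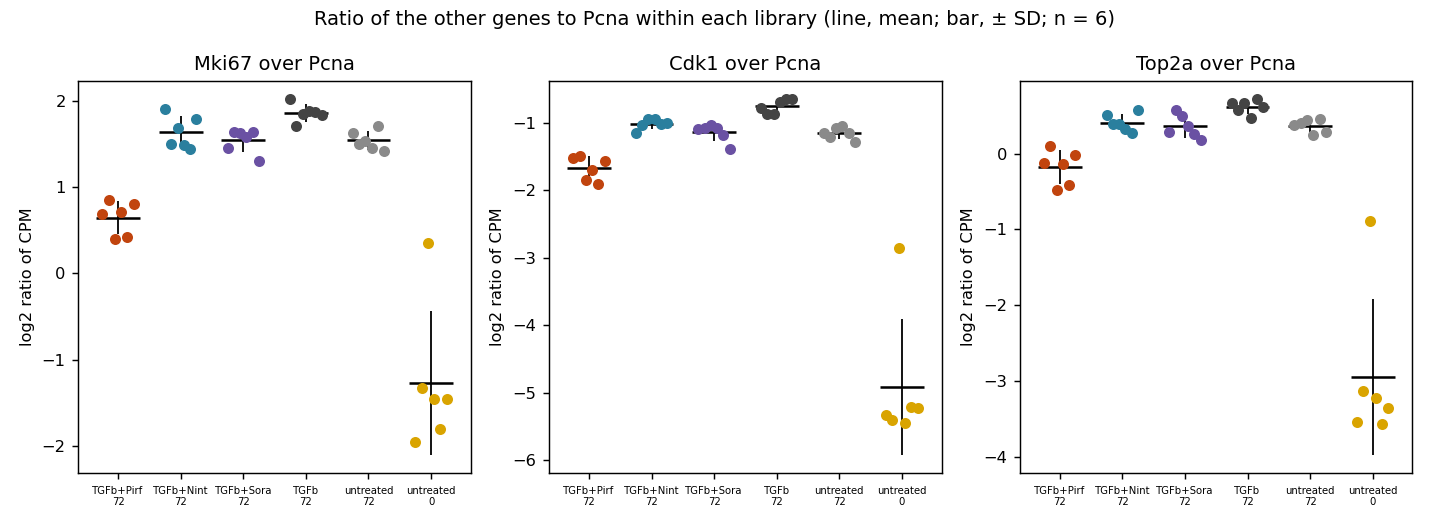
Log2 ratios of Mki67, Cdk1 and Top2a to Pcna in each library, by group, with points for libraries and a line and bar for the mean and SD. The Pirf libraries lie below every library with TGFb alone in all 3 ratios, with a mean Mki67 ratio of 0.64 against 1.86.

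With time the genes also changed unequally. The log2 ratio to Pcna in untreated slices was higher at 72 than at 0 by 3.77 for Cdk1, 3.31 for Top2a and 2.81 for Mki67 (exact permutation, adjusted p = 0.00433 each). The ratio of Mki67 to Cdk1 was lower by -0.96 at 72 (exact permutation, adjusted p = 0.00433), and that of Mki67 to Top2a by -0.50 (adjusted p = 0.0115), so that Mki67 rose less than either. Without untreated replicate 3 at 0 the differences were 4.18 for Cdk1, 3.73 for Top2a and 3.14 for Mki67 over Pcna, and -1.04 for Mki67 over Cdk1 and -0.59 for Mki67 over Top2a.

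Within groups at 72 the genes varied together. After each gene's group mean was subtracted from its log2 CPM, Pearson's r over the 30 libraries at 72 was 0.86 for Mki67 and Top2a, 0.75 for Cdk1 and Top2a and 0.63 for Mki67 and Cdk1 (Spearman's rho 0.83, 0.71 and 0.59). Pcna followed Cdk1 with r = 0.71, Top2a with 0.62 and Mki67 with 0.42 (rho 0.67, 0.57 and 0.37). Each r was also taken without the 2 libraries farthest from the median of a single gene of the pair. That gene was Mki67 in any pair with Mki67, Cdk1 against Top2a or Pcna, and Top2a against Pcna. The r was then 0.83, 0.68 and 0.53 for the first 3 pairs and 0.67, 0.48 and 0.38 for the pairs with Pcna. When the 6 libraries at 0 were included, all 3 pairs with Pcna had a negative r, at -0.31 with Mki67, -0.23 with Top2a and -0.14 with Cdk1 (rho 0.09, 0.25 and 0.41), and untreated replicate 3 at 0 is low for Pcna and high for the other genes. These are descriptions over libraries that share depth and scaling, with no test.

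**Figure D4:**
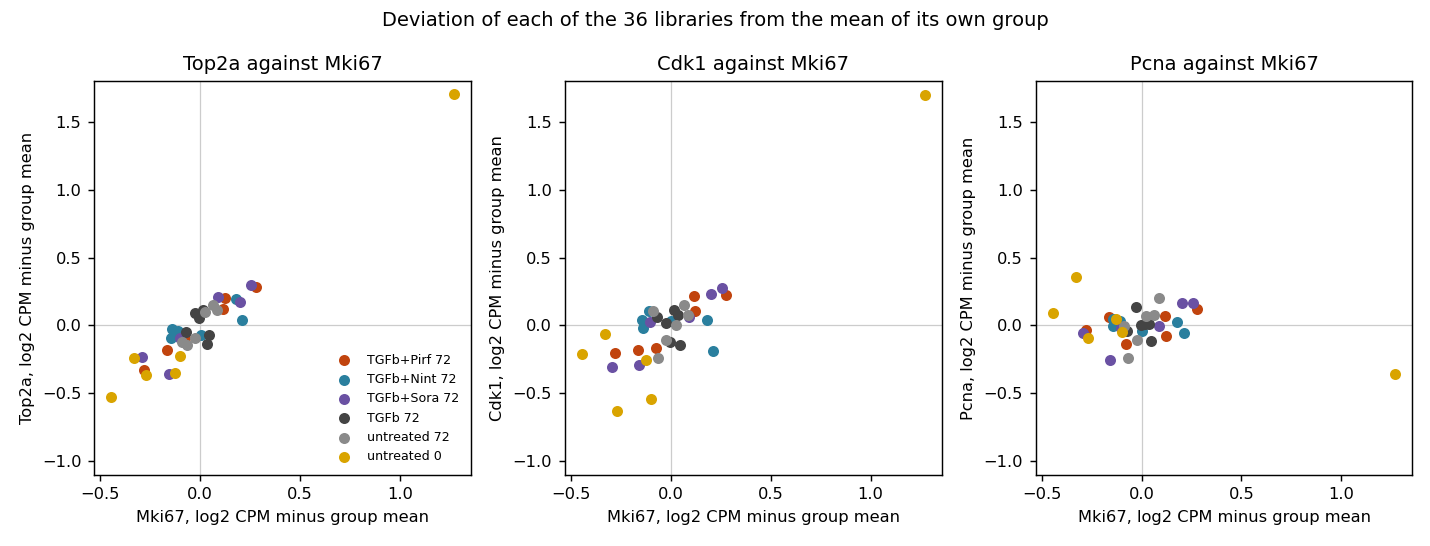
Deviation of log2 CPM from the mean of the library's own group for Top2a, Cdk1 and Pcna on the y axis against Mki67 on the x axis, with 1 point for each of the 36 libraries and groups by colour. Over the 30 libraries at 72 the correlation with Mki67 is highest for Top2a (r = 0.86) and lowest for Pcna (r = 0.42), and the point far to the right is replicate 3 at 0.

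The genes outside the 4 whose log2 CPM followed the mean of the 4 most closely over the 36 libraries were ENSRNOG00000014336 (r = 0.993) and ENSRNOG00000045752 (r = 0.992). The files give these IDs no name. For the mean, the log2 CPM of each of the 4 genes was first standardized, that is centred and divided by its SD over the libraries, so that the 4 weigh equally. ENSRNOG00000014336 averaged 21.4 ± 3.16 CPM with Pirf, against 45.1 ± 4.51 CPM with TGFb alone, and 51.1 ± 6.27 CPM in untreated slices at 72, against 9.26 ± 2.03 CPM in untreated slices at 0 (SD, n = 6). ENSRNOG00000045752 averaged 80.3 ± 6.03 CPM with Pirf, against 143 ± 9.01 CPM with TGFb alone, and 143 ± 11.3 CPM in untreated slices at 72, against 41.6 ± 5.70 CPM in untreated slices at 0. The 4 genes' own correlations with that mean, to which each contributes, were 0.975 for Mki67, 0.959 for Cdk1, 0.961 for Top2a and 0.685 for Pcna. The value of Pcna was exceeded by 21.6% of the other genes tested. Of the 15640 other genes, 851 (5.44%) had r above 0.9, a measure that follows the shared difference between 72 and 0.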

How the data were processed

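The 4 genes, the gene lists and the tests were chosen with earlier results of these data known. Per the submitters' processing notes, RSEM, edgeR and the genome build Rnor_6.0 were used. For the aligner, the annotation release and whether strand was used, the answer is not given in the sources used here. Deposited by the authors were RSEM's expected counts per gene for 36 libraries, and a table of log2 CPM for 14984 coding genes. Their log2 values for the 4 genes equalled edgeR's log2 CPM with TMM factors and a prior count of 0.25.

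Expected counts were rounded to whole numbers, which moved no value of the 4 genes by more than 1e-04, before analysis with edgeR 4.0.16 (R 4.3.3). filterByExpr left 15644 genes, TMM factors were applied, and all 36 libraries were fitted together by quasi-likelihood, with 1 mean for each group and no covariates. Contrasts were tested with glmQLFTest and Benjamini-Hochberg adjustment over the 15644 genes, with calls at an adjusted p under 0.05. The SE was taken as |log2 fold change| over the root of the F statistic, and intervals are 95%. Log2 ratios between genes (prior count 2) were compared with two-sided exact permutation tests. Only edgeR's quasi-likelihood fit was tested on simulated data, for 1 contrast, and the permutation tests were not. Groups and replicate numbers came from the sample titles. No 2 libraries were identical (highest correlation across genes 0.987), and the labels record no batch that divides them.

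Named genes were the 4, and the 2 other IDs whose log2 CPM correlated best with the mean of the 4 genes' standardized log2 CPM. Since 0 of 47357 RefSeq entries carry an Ensembl ID, the gene and cell marker lists drawn up by name were not run. Alternatives were edgeR's RLE factors, no scaling factors, no filter, DESeq2 1.42.0, limma 3.58.1 with voom, the 12 libraries compared, a test against a fold of 1.2, the replicate number as a block and leaving out each library. Fitting the 30 libraries at 72, and leaving untreated replicate 3 at 0 out of the fit, were added after the data were seen.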

Additional observations from a re-analysis of the deposited data

Results flagged for a closer look

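In each of the 24 combinations of gene and group, the gap between the most extreme library and its neighbour was divided by the range of the 6 libraries and set against Dixon's 95% critical value, which chance passes in about 1 group in 20. Untreated replicate 3 at 0 passed it for 3 genes, as the highest library. The ratio was 0.9368 for Top2a, 0.8819 for Mki67 and 0.8813 for Cdk1. Pcna was not among them, and its level in this library was the lowest of its group, inside the critical value. The 3 genes vary together, so these are not separate observations.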

How the results depend on the processing

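For the 4 genes in the 5 main comparisons, 421 of 432 alternatives kept the side of the threshold, and 420 of these also kept the direction. The exception was Top2a with TGFb, which was not called and stood at -0.0020 without scaling factors. With the other 10 comparisons included, 1248 of 1280 kept the side and 1226 of these also the direction. The 22 changes of sign were in values that passed the test neither before nor after. Tested against a fold of 1.2, Pcna was not called for untreated slices at 72 against 0 (0.36) or for Pirf against TGFb (-0.29). Nor was Pcna called in that test for Nint (0.36) or Sora (0.39) against Pirf. The same held against untreated slices at 0 for TGFb alone (0.18), Nint (0.24) and Sora (0.27). Without scaling factors Pcna was not called for Pirf against TGFb (-0.14) and was called for TGFb against untreated slices at 72 (-0.25). The 12 libraries compared alone gave calls for Mki67 (0.14) and Cdk1 (0.22) with TGFb. The 30 libraries at 72 alone gave calls for Pcna with TGFb (-0.18) and Cdk1 with Sora (-0.28), as did leaving untreated replicate 3 at 0 out of the fit (-0.20 and -0.28). Leaving out single libraries gave Pcna with TGFb values from -0.22 to -0.14. The cause was not tested.

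Replicate numbers gave no clear pairing of the libraries. Same-numbered libraries of different groups had a mean correlation of deviations of 0.017 over 90 pairs (range -0.31 to 0.56). Differently numbered libraries had -0.0034 over 450 pairs, and 8 of 36 libraries correlated best with their own number. Animals shared under other numbers, or with weak likeness, would not be seen this way. With the replicate block the log2 change of Mki67 with TGFb was 0.15, and of the calls of the 4 genes it ended that of Pcna for TGFb against untreated slices at 0 (0.18, adjusted p = 0.0594 in edgeR's test) and changed no other. Against a fold of 1.2, the genes called in all were 1779 for TGFb (4130 in the fit reported), 4099 for Pirf (8061), 99 for Nint (483) and 410 for Sora (2406) against their references. It gave 4214 for Pirf (8131), 1762 for Nint (4137) and 1143 for Sora (3913) against untreated slices at 72, 4602 for Nint (8544) and 2520 for Sora (6592) against Pirf, and 186 for Sora against Nint (1720). The last count was 1133 without a filter and 942 to 2819 without single Nint or Sora libraries. The Nint count was 781 in the fit of 30 libraries and 309 or 299 without TGFb replicate 2 or 3, and the Sora count was 1423 from the 12 libraries alone. Without scaling factors the calls for TGFb were 1363 higher and 2543 lower (2187 and 1943 with them), and for Sora against TGFb 2173 higher and 684 lower (1096 and 1310), with the median of all genes moved by 0.101. They were 4954 higher and 3183 lower for Pirf (4061 and 4070) and 1240 and 2754 for Nint (1969 and 2168) against untreated slices at 72, and 2148 and 432 for Sora against Nint (1006 and 714). Low counts limit Cdk1 at 0 most, where a library held as few as 34.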
